A study of Mus musculus with 10 samples.

Results

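Astrocytes clear glutamate and potassium from the space around synapses, move water and metabolites between blood and neurons, and pass ions to each other through gap junctions. Near amyloid plaques they enter reactive states, in which filament, protease inhibitor and cytokine response genes are typically raised. A set of 45 mouse genes for these functions was examined in cortex of 5XFAD mice with and without neuronal deletion of Idol. Of the 45, 35 were listed for astrocyte functions and 10 for reactive states. The division is not strict, since some of the 35, such as Mt1 and Mt2, are also induced by inflammation. The genes were listed by symbol for their known roles, at a time when earlier results of these data were known. Several are also made by other brain cells, such as Cpe and Mt3 in neurons and S100b in oligodendrocytes. All 45 were found among the 53700 gene identifiers, and 43 had a total count over 10 and were tested among 19268 genes.

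The samples were 10 cortices, 5 per group, of female mice aged 4 months. Every mouse carried the 5XFAD transgenes, a model of amyloid deposition whose expression in neurons is driven by mouse Thy1 sequence. The libraries labelled 5XFAD;Neu cKO came from mice in which floxed Idol alleles, listed as Mylip, were recombined by Camk2a-Cre, which acts in excitatory forebrain neurons and not in astrocytes. The controls, labelled 5XFAD and given as Camk2a-cre WT, were littermates, and their floxed Idol genotype is not spelled out in the labels. Mylip itself was counted 50, 53, 108, 50 and 45 times in the 5XFAD replicates 1 to 5 and 77, 78, 148, 112 and 50 times in the cKO replicates (log2 fold change 0.39, standard error 0.25, adjusted p = 0.777 in edgeR), so the deletion named in the labels was not visible in the counts of its target. The paper reports significantly lower Idol mRNA by quantitative PCR in cortex of the neuronal knockout mice. Whether counts of reads from transcript ends can show the deletion was not tested. As the counts did not show it, the groups are called the 5XFAD-labelled and the cKO-labelled libraries. They held 4320504 to 7466192 and 5148499 to 7246659 counted reads.

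Levels are given as read counts scaled to a common library size (CPM) after TMM scaling, as mean ± SD over n = 5 libraries, and values per library run from replicate 1 to 5. QuantSeq reads come from the 3′ end, about 1 per transcript, so a CPM does not grow with gene length. Fold changes are log2 values of cKO-labelled against 5XFAD-labelled libraries with a 95% interval, positions are in GRCm39, and adjusted p-values are Benjamini-Hochberg's over all genes in edgeR's quasi-likelihood test. In pieces of cortex, fewer astrocytes and less RNA per astrocyte cannot be told apart.

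None of the 43 genes differed between the groups at an adjusted p under 0.05 in edgeR, where 42 of 19268 genes did (0.218%), 31 lower and 11 higher. DESeq2 called 1 of the 43, Mt3, and its filter on low means gave 11 of them no adjusted p. At an unadjusted p under 0.05 edgeR gave 8 of the 43. Of these, 6 were lower in cKO-labelled libraries (Mfge8, S100b, Ntsr2, Aldh1l1, Aqp4 and Plpp3), against a background of 4.01% of all genes, and 2 were higher (Mt3 and Maob), against 3.94%. DESeq2 also gave 8 at an unadjusted p under 0.05. These were not the same 8 genes. Aqp4 and Plpp3 were not among them, while Cpe and S1pr3 were, both lower in cKO-labelled libraries. The share of all genes at this limit in DESeq2 is not given here. For 0 of the 43 did the 2 groups of libraries lie wholly apart in CPM, where 1.30% of all genes did so.

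The fold changes were small and leaned downwards. Their median was -0.10, and 31 of 43 (72.1%) were below 0, against a median of -0.00056 and 50.1% below 0 over all genes tested. That split depends on the scaling. With total counts in place of TMM, 23 of 43 (53.5%) were below 0 with a median of -0.01, while the median of all genes moved to 0.09 and 38.0% of them were below 0. Taken relative to the median of all genes, the median of the 43 was -0.10 under both scalings. A change of scaling moves all fold changes by nearly the same amount, so this agreement was set in advance and is no separate check. The same holds for the lists below. The 35 genes listed for astrocyte functions had a median of -0.10 with 26 below 0, and the 8 tested reactive genes -0.17 with 5 below 0.

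**Figure D1:**
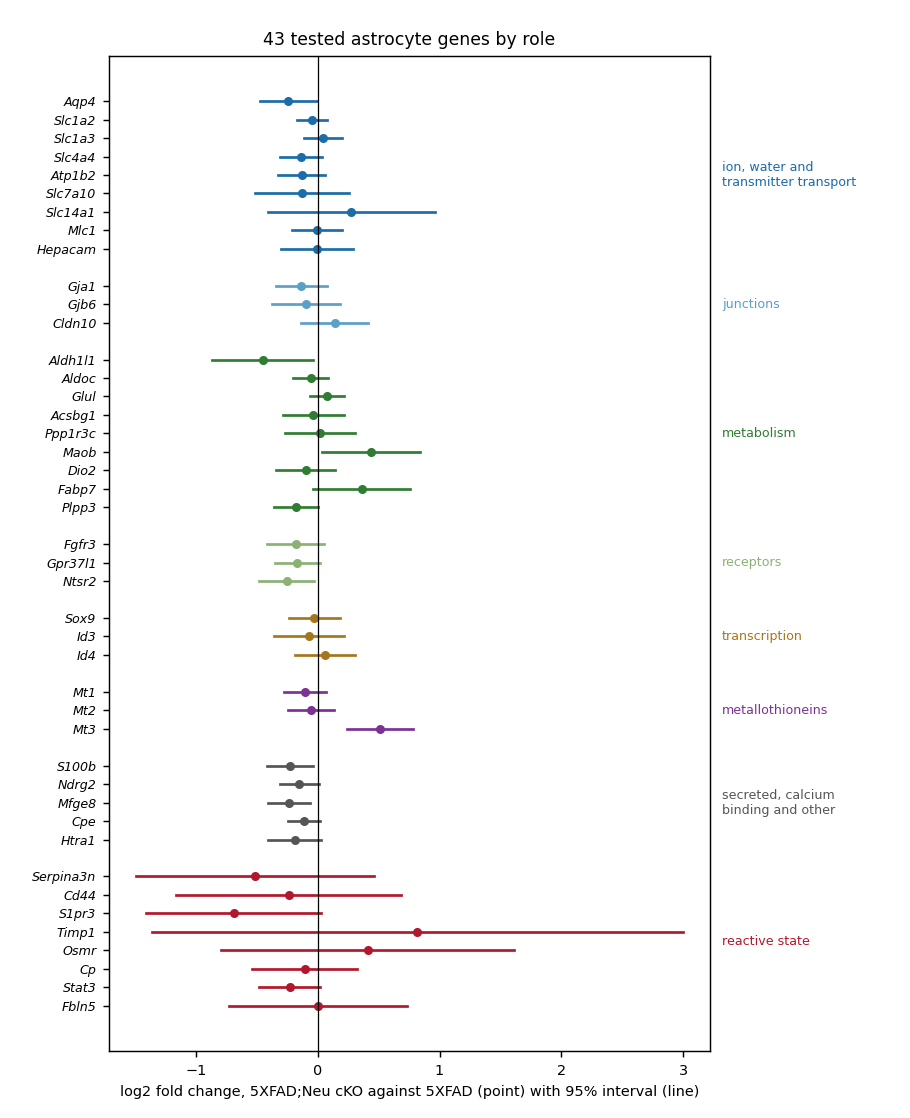
Log2 fold change of each of the 43 tested genes, cKO-labelled against 5XFAD-labelled libraries (point), with its 95% interval (line), grouped by role. Of the 43 points 31 lie below 0 (the median is -0.10), Mt3 stands at 0.51 with an interval of 0.24 to 0.79, and the widest intervals belong to reactive genes such as Timp1.

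How firmly a difference can be bounded depended on the level of the gene. The median half-width of the interval was 0.17 log2 units for the 16 genes over 100 CPM, 0.27 for the 20 genes between 10 and 100 CPM and 0.93 for the 7 genes under 10 CPM. For 38 of the 43 the interval lay inside a 2-fold change in either direction, that is within 1 log2 unit. The 5 exceptions, Serpina3n, Cd44, S1pr3, Timp1 and Osmr, are all reactive genes. For 30 of the 43 it lay within 0.5 log2 units.

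Among the genes of ion, water and transmitter transport, Aqp4 (ENSMUSG00000024411, chromosome 18, 15522451 to 15544039) encodes the water channel of astrocyte endfeet. It was at 115, 103, 75.3, 107 and 69.6 CPM in the 5XFAD-labelled and at 89.5, 82.0, 76.7, 79.1 and 70.2 CPM in the cKO-labelled libraries. The 5XFAD-labelled libraries split into 3 above every cKO-labelled library and 2 in or below their range. The fold change was -0.24 (95% interval -0.48 to -0.01, adjusted p = 0.616 in edgeR), and the exact two-sided permutation test over libraries gave p = 0.206. A predicted gene, Gm50048, overlaps Aqp4 on the other strand, and as the strand setting of the counting is not given in the sources used here, reads of the 2 cannot be told apart with certainty. The same limit holds for other genes of the set that overlap annotated genes, and not every such overlap is named below.

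Slc1a2 and Slc1a3 encode the astrocytic glutamate transporters GLT-1 and GLAST. Slc1a2 was at 3241, 3279, 2731, 2827 and 2959 CPM against 3136, 2899, 2861, 2939 and 2746 CPM in the cKO-labelled libraries. Slc1a3 was at 484, 391, 431, 423 and 394 CPM against 459, 462, 457, 431 and 383 CPM. All 5 cKO-labelled values of Slc1a2 and 4 of the 5 of Slc1a3 lay within the range of the 5XFAD-labelled ones. The fold changes were -0.04 (interval -0.17 to 0.08) for Slc1a2 and 0.05 (-0.11 to 0.20) for Slc1a3, among the narrowest bounds of the set, and Slc1a2 turned to 0.04 with total counts in place of TMM.

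None of the other transport genes passed the test, and their bounds differed in width. The bicarbonate cotransporter gene Slc4a4 had a fold change of -0.14 (interval -0.31 to 0.04) and the sodium pump subunit gene Atp1b2 of -0.13 (-0.33 to 0.06). Mlc1 and Hepacam, whose proteins form a complex at astrocyte contacts and endfeet, had fold changes of -0.00 (interval -0.21 to 0.20) and -0.01 (-0.30 to 0.29), and both turned positive with total counts, to 0.09 and 0.07. Slc7a10, a serine and alanine transporter gene, had -0.13 (-0.52 to 0.25), and the urea transporter gene Slc14a1, at 6.05 ± 2.92 and 7.44 ± 1.69 CPM, had 0.28 (-0.41 to 0.97). Of the 9 transport genes 7 were below 0, with a median of -0.04, and with total counts 4 of 9 were below 0 with a median of 0.04. Relative to the median of all genes, these medians were -0.044 and -0.042.

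Gja1 and Gjb6 encode connexins 43 and 30, the gap junction proteins that couple astrocytes, and Cldn10 a claudin. Gja1 was at 126, 105, 135, 110.2 and 88.2 CPM against 115, 95.6, 103, 111 and 89.9 CPM in the cKO-labelled libraries. The lowest library of all was 5XFAD replicate 5 and the groups overlapped over most of their range (fold change -0.13, interval -0.35 to 0.08, adjusted p = 0.861). Gjb6, with -0.10 (-0.38 to 0.18), was tight in the 5XFAD-labelled libraries at 42.1 ± 1.58 CPM and wider in the cKO-labelled ones at 39.3 ± 7.23 CPM. Cldn10 had a fold change of 0.14 (-0.14 to 0.42).

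The metabolic genes had fold changes of both signs, and none passed the test in edgeR. Aldh1l1 (ENSMUSG00000030088, chromosome 6, 90463409 to 90577185), a folate enzyme gene used as a general astrocyte marker, was at 18.6, 17.4, 19.0, 22.4 and 18.4 CPM in the 5XFAD-labelled and at 13.8, 10.3, 18.6, 12.1 and 14.8 CPM in the cKO-labelled libraries. In 4 of the 5 cKO-labelled libraries it lay below every 5XFAD-labelled one, and replicate 3 did not. The fold change was -0.45 (interval -0.87 to -0.04, adjusted p = 0.558, exact permutation p = 0.0317). Other annotated genes overlap Aldh1l1 on both strands, so its counts carry that uncertainty as well.

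Maob (ENSMUSG00000040147, chromosome X, 16574807 to 16683686) encodes monoamine oxidase B, an enzyme that in astrocytes takes part in making GABA from putrescine. Its values were 14.3, 22.8, 14.4, 12.3 and 13.9 CPM in the 5XFAD-labelled libraries and 24.7, 20.2, 20.1, 20.0 and 20.0 CPM in the cKO-labelled ones. Without 5XFAD replicate 2, which lay above 4 of the 5 cKO-labelled libraries, the groups would not have overlapped. The fold change was 0.44 (0.04 to 0.84, adjusted p = 0.558 in edgeR, exact permutation p = 0.0397).

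Plpp3 (ENSMUSG00000028517, chromosome 4, 105014421 to 105089964), a lipid phosphatase gene, was at 441, 502, 371, 452 and 362 CPM against 469, 358, 389, 359 and 302 CPM. Here cKO replicate 1 stood with the higher 5XFAD-labelled libraries (fold change -0.18, interval -0.36 to -0.00, adjusted p = 0.628 in edgeR, exact permutation p = 0.238). Glul encodes glutamine synthetase, which turns glutamate into glutamine, and was at 1389, 1181, 1118, 1249.9 and 1220.4 CPM against 1211, 1133, 1508, 1336 and 1302 CPM. Its fold change of 0.08 (-0.07 to 0.22) and that of Aldoc, the brain aldolase gene, of -0.06 (-0.20 to 0.09) were bounded tightly.

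Aldoc was at 665, 755, 612, 632 and 692 CPM in the 5XFAD-labelled and at 659, 672, 637, 646 and 612 CPM in the cKO-labelled libraries, so all 5 cKO-labelled libraries lay below the 2 highest of the other group. With total counts in place of TMM it turned to 0.03. The brain fatty acid binding protein gene Fabp7 varied more, at 20.1 ± 7.24 and 25.9 ± 6.34 CPM (fold change 0.36, interval -0.04 to 0.76). Acsbg1, an acyl-CoA synthetase gene that overlaps Idh3a on the other strand, had -0.04 (-0.28 to 0.21). Dio2, whose deiodinase makes active thyroid hormone for neurons, had -0.10 (-0.34 to 0.15), and the glycogen-targeting subunit gene Ppp1r3c had 0.02 (-0.27 to 0.30). In all, 5 of the 9 metabolic genes were below 0 with a median of -0.04, and 3 of 9 with total counts, with a median of 0.05. Relative to the median of all genes, these medians were -0.035 and -0.037.

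All 3 receptor genes were lower in the cKO-labelled libraries, under both scalings, and none passed the test. Ntsr2 (ENSMUSG00000020591, chromosome 12, 16703383 to 16710243), a neurotensin receptor gene, was at 89.0, 111, 76.9, 86.3 and 86.4 CPM against 84.9, 74.5, 75.7, 78.1 and 62.9 CPM. Of the 5XFAD-labelled libraries 4 lay above every cKO-labelled one, and replicate 3 lay among them (fold change -0.26, interval -0.48 to -0.03, adjusted p = 0.531 in edgeR, exact permutation p = 0.0238). Ntsr2 overlaps Lpin1 on the other strand. The growth factor receptor gene Fgfr3 was at 66.3 ± 5.53 and 58.4 ± 4.05 CPM (-0.18, -0.41 to 0.05), with cKO replicate 1 alone within the range of the other group. Gpr37l1, an orphan receptor gene, was at 173 ± 20.8 and 154 ± 8.67 CPM (-0.17, -0.35 to 0.02), with 5XFAD replicate 3 as the one library of its group below the cKO-labelled ones. The median of the 3 was -0.18, or -0.10 with total counts.

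The transcription regulators lay near 0. Sox9, which specifies and marks astrocytes, was at 110.3, 96.2, 96.6, 113 and 84.2 CPM against 107, 90.3, 106, 82.6 and 104 CPM. The groups were interleaved throughout, with a fold change of -0.03 (-0.24 to 0.18, adjusted p = 0.985) that turned to 0.06 with total counts. The inhibitors of DNA binding Id3 and Id4 had fold changes of -0.07 (-0.36 to 0.22) and 0.06 (-0.19 to 0.31).

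**Figure D2:**
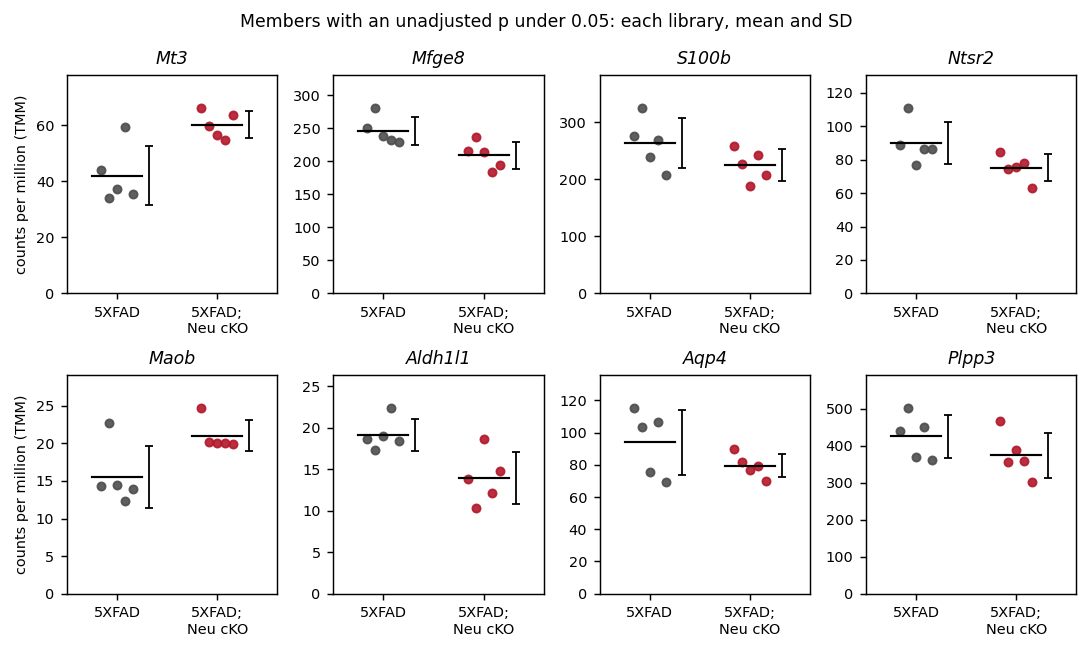
TMM-scaled CPM in each library for the 8 genes with an unadjusted p under 0.05 in edgeR, in order of that p, with axes from 0. Points are libraries from replicate 1 to 5, horizontal lines are means and error bars are SD over n = 5, and every panel shows at least 1 library within the range of the other group, such as 5XFAD replicate 4 at 59.3 CPM for Mt3.

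Metallothioneins are small proteins that bind zinc and copper through many cysteines. Mt1 and Mt2 are induced by metals, glucocorticoids and inflammation, while Mt3 is largely a brain form, present in neurons and astrocytes. The genes lie side by side on the plus strand of chromosome 8 in GRCm39, Mt3 from 94879220 to 94881088, Mt2 from 94898819 to 94900207 and Mt1 from 94905710 to 94906955. Their coding sequences, read from 1 GENCODE transcript of each gene, without the stop codon, are shown because the genes are close relatives that counting has to tell apart. Capitals mark the codons TGC and TGT, which encode cysteine. 
Mt1: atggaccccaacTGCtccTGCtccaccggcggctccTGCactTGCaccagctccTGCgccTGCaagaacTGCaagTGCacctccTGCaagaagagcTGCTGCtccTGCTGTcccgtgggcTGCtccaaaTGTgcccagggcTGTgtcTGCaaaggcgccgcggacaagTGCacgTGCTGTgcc
Mt2: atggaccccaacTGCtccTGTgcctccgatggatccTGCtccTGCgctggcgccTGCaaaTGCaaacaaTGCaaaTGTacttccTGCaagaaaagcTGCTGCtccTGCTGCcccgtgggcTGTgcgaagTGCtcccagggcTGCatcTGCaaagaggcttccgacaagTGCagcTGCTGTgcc
Mt3: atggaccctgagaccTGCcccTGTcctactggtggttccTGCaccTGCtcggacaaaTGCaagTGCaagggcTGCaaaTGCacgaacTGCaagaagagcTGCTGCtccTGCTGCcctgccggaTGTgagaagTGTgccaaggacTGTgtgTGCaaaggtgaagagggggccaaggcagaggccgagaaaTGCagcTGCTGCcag
Each holds 20 cysteine codons, among 61 codons in Mt1 and Mt2 and 68 in Mt3. Mt1 and Mt2 are identical at 79.2% of coding positions. The longest identical run that any pair of the 3 transcripts shares, over the whole transcript without its last adenines, was 27 bases, between Mt1 and Mt3. It was 20 bases in each of the other pairs.

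Mt3 was the gene of the set with the smallest p. It was at 44.2, 34.0, 37.4, 59.3 and 35.5 CPM in the 5XFAD-labelled libraries and at 66.2, 59.8, 56.6, 54.7 and 63.8 CPM in the cKO-labelled ones, from 145 to 444 counted reads per library. Only 5XFAD replicate 4 stood within the range of the other group, and the other 4 libraries lay below every cKO-labelled one. The mean was 42.1 ± 10.4 against 60.2 ± 4.80 CPM, a fold change of 0.51 (standard error 0.14, interval 0.24 to 0.79). Its adjusted p was 0.0994 in edgeR and 0.0483 in DESeq2, and the exact two-sided permutation test gave p = 0.0238, where 0.00794 is the smallest that 5 against 5 allows. The direction held in all 18 alternatives and the adjusted p passed 0.05 in 5 of them, the lowest being 0.00892 when 5XFAD replicate 4 was removed and the highest 0.409 when replicate 2 was.

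The other metallothioneins had smaller fold changes, and their difference from Mt3 was not tested. Mt1 was at 317, 328, 274, 262 and 331 CPM against 314, 289, 293, 268 and 241 CPM (fold change -0.10, interval -0.27 to 0.07). Mt2 was at 250.2, 253, 228, 244 and 291 CPM against 286, 285, 228, 237 and 182 CPM (-0.06, -0.24 to 0.13, and 0.03 with total counts). In both the groups overlapped widely, and cKO replicate 5 was the lowest library. As a share of the summed CPM of the 3 genes, Mt3 made up 5.39% to 10.5% in the 5XFAD-labelled and 9.43% to 13.1% in the cKO-labelled libraries. The highest share among the former, in replicate 4, exceeded 4 of the 5 cKO-labelled shares.

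**Figure D3:**
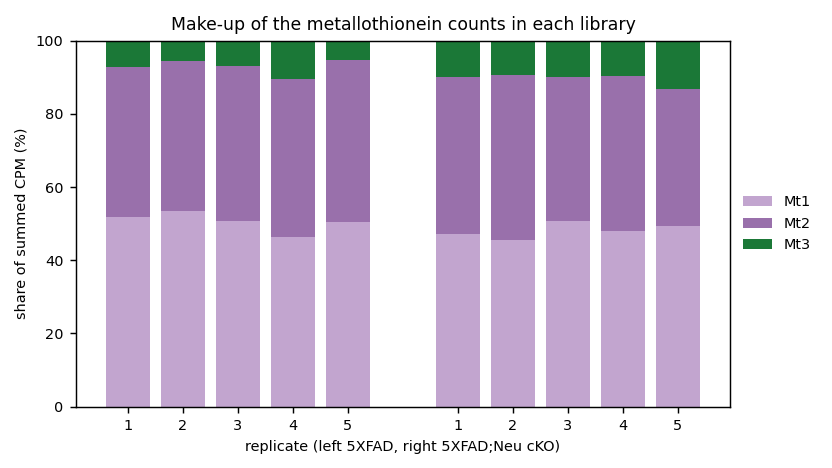
Share of Mt1, Mt2 and Mt3 in their summed TMM-scaled CPM (vertical axis, percent), one bar per library, 5XFAD-labelled on the left and cKO-labelled on the right. Mt3 takes 5.39% to 7.23% in the 5XFAD-labelled libraries other than replicate 4, where it takes 10.5%, and 9.43% to 13.1% in the cKO-labelled libraries.

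The 5 secreted, calcium-binding and other genes were all below 0, with a median of -0.19, and all below 0 also with total counts, with a median of -0.11. None passed the test. Mfge8 (ENSMUSG00000030605, chromosome 7, 78783515 to 78798825) encodes lactadherin, a secreted bridge between phosphatidylserine and phagocytes. It was at 250.0, 281, 238, 233 and 229.8 CPM against 215, 237, 215, 183 and 194 CPM, where cKO replicate 2 alone reached into the range of the other group. The fold change was -0.24 (interval -0.41 to -0.06), with an adjusted p of 0.431 in edgeR, 0.156 in DESeq2 and an exact permutation p of 0.0238.

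S100b (ENSMUSG00000033208, chromosome 10, 76085090 to 76097159), a calcium-binding protein gene of astrocytes and oligodendrocytes that overlaps Dip2a on the other strand, was at 276, 325, 239, 269 and 208 CPM against 259, 227, 188, 243 and 207 CPM. The groups overlapped, since 5XFAD replicate 5 was as low as the lower cKO-labelled libraries (fold change -0.23, interval -0.42 to -0.04, adjusted p = 0.488 in edgeR, exact permutation p = 0.135). Cpe, carboxypeptidase E of peptide hormone processing, had -0.11 (-0.25 to 0.02). The protease gene Htra1, which overlaps Fgfr2 on the other strand, had -0.19 (-0.41 to 0.03). Ndrg2, a stress-responsive gene used as an astrocyte marker that overlaps Tppp2 on the other strand, had -0.15 (-0.31 to 0.01). The summed level of the 5 was 2349, 2532, 2221, 2150.2 and 2195 CPM against 2114, 2114, 2143, 2034 and 1899 CPM, so that the 2 groups lay just apart. With total counts in place of TMM they overlapped, at 2107 to 2299 against 2009.5 to 2252.

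Most reactive genes had few reads, and all but Stat3 and Cp averaged under 10 CPM. Lcn2, the lipocalin of strongly reactive astrocytes, was counted 0 times in every 5XFAD-labelled library, which allows up to 0.402 to 0.694 CPM, and 6 and 2 times in cKO replicates 2 and 4. Steap4, a metalloreductase gene, was counted 1 time in 5XFAD replicate 3 and 1 and 3 times in cKO replicates 1 and 3. Both totals were under the filter, so neither was tested. Timp1, a metalloprotease inhibitor gene that overlaps Syn1, was counted 5, 2, 6, 4 and 0 times against 0, 0, 6, 12 and 18 times. With 3 libraries at 0 and 2 cKO-labelled libraries above all others, its interval of -1.36 to 3.00 bounds little.

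Serpina3n, a serine protease inhibitor gene raised in many reactive states, was at 4.65, 4.69, 3.26, 2.42 and 4.26 CPM against 4.30, 1.47, 1.58, 3.70 and 2.44 CPM. The groups overlapped and the interval was wide (fold change -0.51, interval -1.49 to 0.46, adjusted p = 0.891). S1pr3, a sphingosine phosphate receptor gene, was at 6.01, 6.10, 6.93, 9.13 and 7.18 CPM against 4.11, 6.81, 4.99, 2.86 and 3.16 CPM. Of the cKO-labelled libraries 4 lay below every 5XFAD-labelled one, and replicate 2 did not (-0.69, -1.41 to 0.03, adjusted p = 0.655 in edgeR, exact permutation p = 0.0238).

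The hyaluronan receptor gene Cd44 was at 4.65, 0.939, 2.99, 6.52 and 5.84 CPM against 3.74, 4.23, 1.58, 4.54 and 3.73 CPM (-0.24, -1.17 to 0.69). Osmr, the oncostatin M receptor gene, was at 2.52, 3.99, 0.136, 1.12 and 4.26 CPM against 6.17, 1.10, 1.31, 3.37 and 3.73 CPM (0.41, -0.79 to 1.61). The groups were interleaved in both, with 3 5XFAD-labelled libraries above and 1 below every cKO-labelled one for Cd44, and cKO replicate 1 alone above the 5XFAD-labelled range for Osmr. Fbln5, an extracellular matrix gene, was at 5.43, 5.16, 6.93, 6.34 and 5.16 CPM against 4.67, 1.84, 6.04, 8.75 and 7.76 CPM (0.00, -0.73 to 0.73).

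Better counted were Stat3 and Cp. Stat3, the transcription factor that drives much of astrocyte reactivity, was at 47.7, 65.9, 64.8, 55.0 and 57.9 CPM against 56.1, 46.7, 52.1, 45.9 and 47.4 CPM. It was below the median of the 5XFAD-labelled libraries in all 5 cKO-labelled ones, but 5XFAD replicate 1 was among the low libraries (fold change -0.23, interval -0.48 to 0.02, adjusted p = 0.677 in edgeR, exact permutation p = 0.0556). The ferroxidase gene Cp was at 11.4, 15.0, 24.0, 18.6 and 16.2 CPM against 15.5, 15.1, 20.1, 16.5 and 12.4 CPM (-0.11, -0.54 to 0.32). Stat3 overlaps Stat5a and Cp overlaps Hps3 on the other strand.

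**Figure D4:**
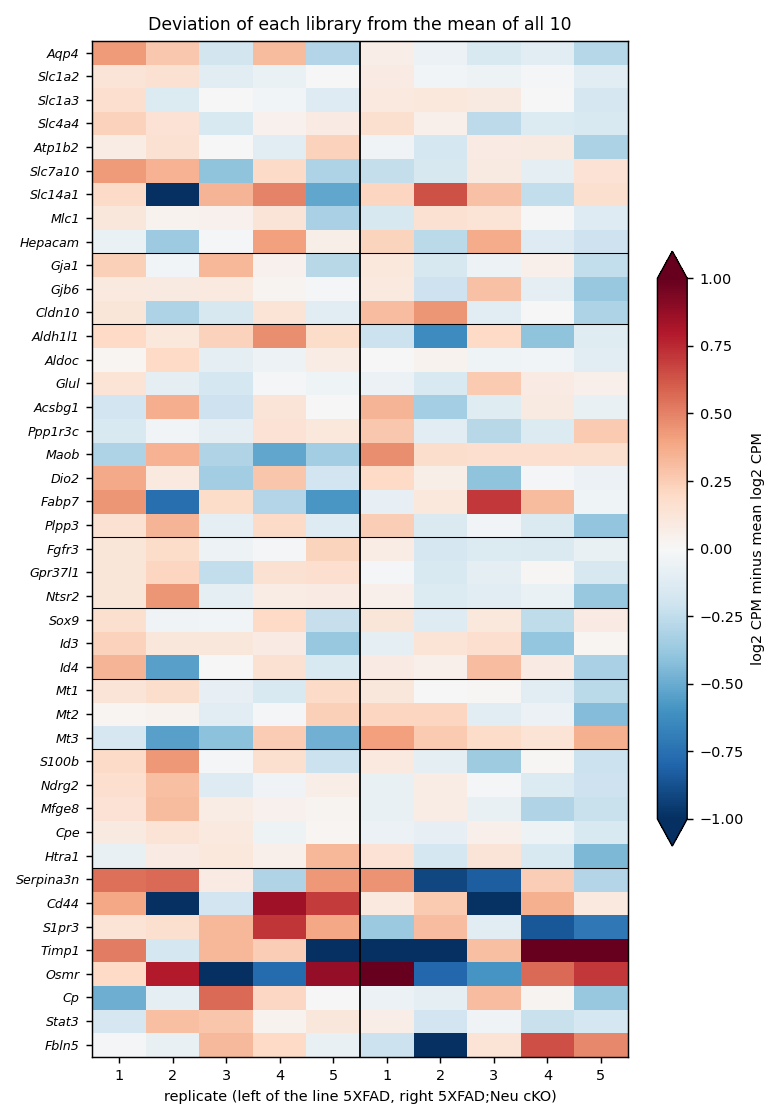
Each library's log2 CPM minus the mean of all 10 libraries (colour, held at -1 and 1) for the 43 tested genes in rows, ordered by role, with replicates 1 to 5 of the 5XFAD-labelled libraries left of the line and of the cKO-labelled ones right of it. Medians over the genes run from -0.15 in cKO replicate 5 to 0.14 in 5XFAD replicate 1, and the strongest colours fall on the low-count reactive genes.

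Single libraries differed in level over the whole set. The median deviation of the 43 genes from the mean of all libraries was 0.14, 0.11, -0.03, 0.08 and 0.00 in the 5XFAD-labelled libraries and 0.08, -0.09, -0.02, -0.02 and -0.15 in the cKO-labelled ones. Thus 5XFAD replicates 1, 2 and 4 and cKO replicate 1 were the high libraries, and the groups overlapped. Replicate 5 of the cKO-labelled libraries was the lowest of all 10 for 11 genes, and 5XFAD replicate 2 was the highest for 12 and the lowest for 7. When libraries were removed one at a time, the median fold change of the tested genes stayed between -0.12 and -0.08, while that of the reactive genes went from -0.17 to -0.05 without 5XFAD replicate 4 and to -0.07 without 5XFAD replicate 3.

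Beside the set, other genes of the same cells were also mostly below 0. Of 42 further genes typical of astrocytes, 41 were tested, 30 were below 0 and the median was -0.17, or 24 and -0.08 with total counts. Relative to the median of all genes, their median was -0.17 under both scalings. At an unadjusted p under 0.05 there were 14 of the 41, 12 of them lower and 2 higher. Over all genes tested the shares were 4.01% lower and 3.94% higher. As the lists were chosen with earlier results of these data known, such a comparison describes them and is no independent test. Of 30 further reactive genes, 25 were tested, 15 were below 0 and the median was -0.21, or 14 and -0.11 with total counts. Relative to the median of all genes, these medians were -0.21 and -0.20. Each list held 1 gene past the threshold in edgeR. Gfap, the intermediate filament of astrocytes, fell from 44.5 ± 10.4 to 24.1 ± 5.71 CPM (fold change -0.88, interval -1.21 to -0.55, adjusted p = 0.00202 in edgeR and 0.00171 in DESeq2).

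F3, which encodes tissue factor, rose from 7.45 ± 3.72 to 17.1 ± 2.90 CPM (1.19, interval 0.66 to 1.72, adjusted p = 0.0232 in edgeR). DESeq2 gave F3 no adjusted p, and an unadjusted p of 3.78e-05. Its values were 13.6, 5.87, 8.29, 5.03 and 4.49 against 17.6, 12.9, 20.5, 15.8 and 18.7 CPM, so 5XFAD replicate 1 reached into the other group. It overlaps Gm43823 on the other strand, and of 10 fits on 9 libraries each it passed in 4, with adjusted p-values from 0.00130 to 0.122. In 3 of the 41 further astrocyte genes the groups lay apart, where 1.30% of all genes did so. All 3 were lower in the cKO-labelled libraries, and none had an adjusted p under 0.05 in edgeR. Itih3, a hyaluronan-linked inhibitor gene, was at 15.71 to 24.9 against 10.4 to 15.66 CPM (-0.58, adjusted p = 0.393). The potassium channel gene Kcnj16 was at 41.3 to 46.2 against 28.5 to 39.5 CPM (-0.32, adjusted p = 0.522), and the proteoglycan gene Gpc5 at 28.6 ± 4.59 against 22.0 ± 0.911 CPM (-0.38, adjusted p = 0.534).

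Lists of markers of 8 other cell types were summed in the same libraries, and no sum passed after adjustment over the 8. Even the smallest p that 5 against 5 allows, 0.00794, was adjusted to 0.0635 here. A list could thus pass only if other lists also had low p-values, so the lack of a pass bounds little. These lists, too, were chosen with earlier results of these data known, so their p-values are no independent test. The summed CPM of 15 microglial genes was 509 to 746 in the 5XFAD-labelled and 345 to 439 in the cKO-labelled libraries (exact two-sided permutation test, p = 0.00794, adjusted p = 0.0635), with 15 of 15 genes lower and 6 past the threshold in edgeR, or 5 in DESeq2. Blood genes, 4 haemoglobins and Alas2, summed to 6.34 to 51.4 against 46.9 to 211 CPM (exact permutation p = 0.0159, adjusted 0.0635), with 5 of 5 higher and 2 past the threshold in edgeR, and 0 in DESeq2, which gave 4 of the 5 no adjusted p. The sums of 15 oligodendrocyte genes overlapped, at 2234 to 3245 against 1984 to 3109 CPM (exact permutation p = 0.119, adjusted 0.317), with 14 of 15 genes lower and 1 past the threshold, which was 0 with total counts. Endothelial, mural, oligodendrocyte precursor and both neuronal lists had medians between -0.02 and 0.03 and 0 genes past the threshold in edgeR. An unadjusted p under 0.05 was found for 3 of these 47 genes, all in the inhibitory neuron list of 10. Of these 3, 1 was lower and 2 were higher, and fold changes in that list ran from -0.42 to 1.04. With DESeq2, 0 of the 47 passed the threshold and 3 had an unadjusted p under 0.05. The part of microglia, blood or oligodendrocytes in the values of the 43 genes was not tested.

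**Figure D5:**
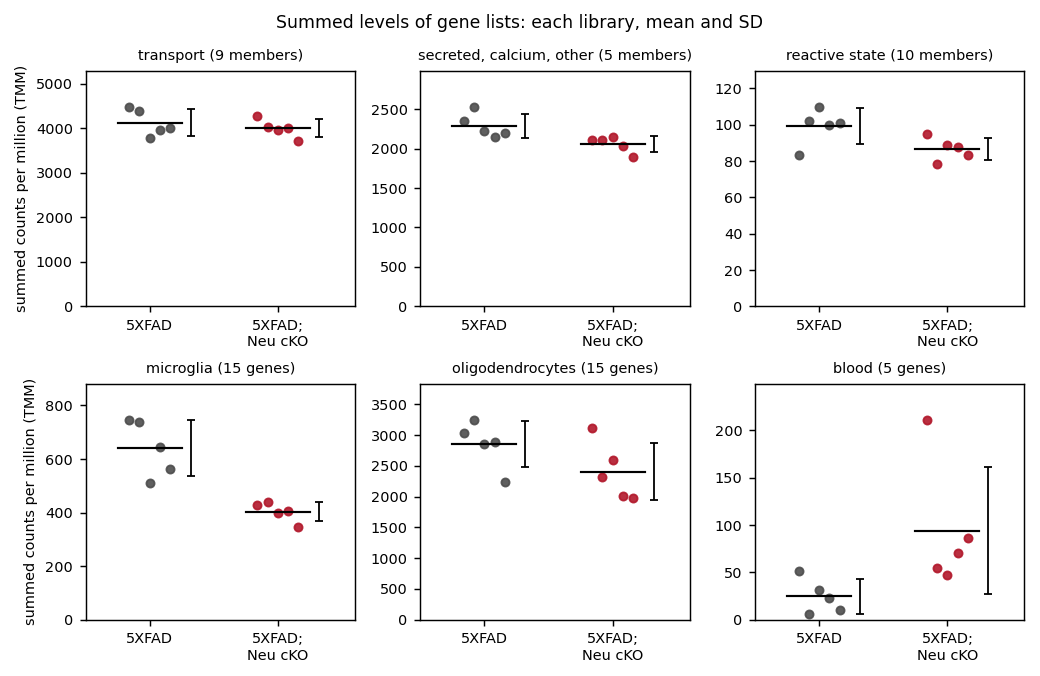
Summed TMM-scaled CPM of 3 role groups of the astrocyte set (upper row) and of markers of 3 other cell types (lower row) in each library, with axes from 0. Points are libraries from replicate 1 to 5, lines are means and error bars SD over n = 5. The microglial sums lie apart (509 to 746 against 345 to 439), while those of transport and reactive genes overlap.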

How the data were processed

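Cortex of the right hemisphere was taken after perfusion, and QuantSeq 3′ libraries were read as single reads. The authors used bbduk for trimming, STAR 2.7.3a for alignment to GRCm39 and htseq-count with Ensembl genes. The deposited values are these counts, whole numbers with no normalization. Rows that name no gene held 31.3% to 39.9% of the kept reads as on no gene, and were left out.

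Symbols came from GENCODE vM39, a later release of the same build, which named 52610 of the 53700 identifiers. Genes with a total count of 10 or less were removed, as in the study. The test was that of edgeR 4.0.16 under R 4.3.3 (TMM, glmQLFit, glmQLFTest, group as the only term), and adjusted p-values are Benjamini-Hochberg's over 19268 genes. Single genes were also compared by the mean log2 CPM (prior count 2) in an exact two-sided permutation test over 252 relabellings, with no adjustment. DESeq2 1.42.0, other scalings and filters, a robust fit, a table free of mitochondrial genes, a block for the replicate number and the removal of each library were the alternatives. The fits were tested on simulated data.

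The genes and lists were chosen with earlier results of these data known. Values in every library are given for the 8 genes with the smallest unadjusted p, for metallothionein and reactive genes and for 9 common markers. Of other astrocyte genes, those past the threshold or with groups that lie apart are named. No promoter is shown, because no gene passed the rule for it, and coding sequences stand in for proteins, which were not used here. Intervals and the limit at a count of 0 (3 reads) cover the spread between libraries and counting error respectively. Over 20 pairs of libraries within groups the chi-square was at least 5.70 per degree of freedom, so none was a repeat. Where nothing says more, p-values measure the spread between these 10 libraries.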

Additional observations from a re-analysis of the deposited data

Results flagged for a closer look

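In 86 groups of 5 libraries (43 genes in 2 groups), the highest or lowest library stood apart from its nearest neighbour by more than Dixon's 95% limit of the range in 6 groups. Chance alone flags about 1 in 20 groups. For Maob, cKO replicate 1 was at 24.7 CPM with the next at 20.2 (gap over range 0.944) and 5XFAD replicate 2 at 22.8 with the next at 14.4 (0.800). The latter library is the one that made the groups overlap. For Gpr37l1, 5XFAD replicate 3 was at 137 CPM with the next at 177 (0.774), and it is the one library of its group below the cKO-labelled ones. Replicate 5 of the 5XFAD-labelled libraries was low for Mlc1, at 87.8 against 113 CPM (0.773), and for Id3, at 30.5 against 42.1 CPM (0.717). For Cd44, cKO replicate 3 was at 1.58 CPM with the next at 3.73 (0.728).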

How the results depend on the processing

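Over 18 alternatives, 31 of the 43 genes kept the sign of their fold change and 12 did not. The cause was not tested. All genes past the threshold numbered 42, and 73 with DESeq2, 103 without the filter on low counts and 26 to 72 with one library left out. Genes of the astrocyte set past it numbered 0, and 1 with DESeq2, with total counts and without the filter, and 0 to 1 with one library left out, Mt3 each time (adjusted p 0.0483, 0.0337, 0.0265 and, without 5XFAD replicate 4, 0.00892). With total counts the median of all genes moved from -0.00056 to 0.086. The median of the set was then -0.013, and the fold changes turned to 0.044 (Slc1a2), 0.089 (Mlc1), 0.075 (Hepacam), 0.032 (Aldoc), 0.050 (Acsbg1), 0.061 (Sox9), 0.027 (Id3) and 0.026 (Mt2). With one library left out, the reactive median ran from -0.21 to -0.049, and fold changes crossed 0 for Mlc1 (-0.076 to 0.033), Hepacam (-0.11 to 0.11), Acsbg1 (-0.13 to 0.057), Ppp1r3c (-0.052 to 0.087), Sox9 (-0.083 to 0.028), Id3 (-0.16 to 0.010), Id4 (-0.046 to 0.16), Mt2 (-0.12 to 0.033), Cp (-0.22 to 0.056) and Fbln5 (-0.19 to 0.22). The replicate numbers did not pair the libraries (correlations of same-numbered libraries from -0.078 to 0.054 over 8841 genes). With the replicate block, 112 genes of all and 1 of the set passed, Mt3 (adjusted p 0.0167), and Fbln5 turned to -0.11. For Timp1 the stricter filter gave no value. Intervals were widest for the 7 genes under 10 CPM.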
